A study of Mus musculus with 12 samples.

Results

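Corneal RNA of mice with dry eye disease (DED) that had been given an eye drop of exosomes derived from stem cells was compared with RNA from the cornea of mice with the DED model and no exosomes. The comparison holds 5 libraries, 2 with the eye drop and 3 of the DED model, chosen by the treatment in their labels from the 12 sample columns of the series, 11 of which are independent libraries. The column of eye drop sample 3 was left out, because on the log2 scale each of its 28548 values was the mean of eye drop 1 and eye drop 2, to within 5e-09. The remaining libraries were 3 from DED mice given the exosomes intravenously and 3 from untreated control mice. They shared the estimate of spread in the fit, and their values are given beside the results for position. Every sample is labelled as wild type, as cornea and with the same date. Age, sex, strain, the way the disease was induced, the exosome dose, the kind of stem cell and the hour of collection are not stated in the labels. The titles of the DED and treated libraries speak of a mouse, but whether each library is 1 animal is not stated, so the p-values measure only the spread between these samples. The samples used here hold no DED mice given a drop without exosomes. What the exosomes did and what the drop or its handling did cannot be told apart.

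The eye drop libraries held 12571461 and 13687074 counts, and the DED libraries 14263045, 10355125 and 12216124. Levels below are normalized counts, which are counts divided by a size factor for each library, and they are not comparable between genes of different length. Krt12, the keratin of the differentiated corneal epithelium, took 3.34% and 3.35% of the counts with the eye drop, against 3.53%, 4.50% and 4.14% in DED. Aldh3a1, the abundant soluble dehydrogenase of corneal epithelium, took 1.75% and 1.81% with the eye drop, against 1.35%, 1.44% and 1.58% in DED. The labelled tissue thus carried the defining genes of corneal epithelium at high level in all 5 libraries, whereas Kera, the keratan sulfate core protein of the corneal stroma, took at most 0.00304% with the eye drop and 0.003% in DED. Libraries of the same group were not copies of each other: the chi-square per gene was 13.8 between the eye drop libraries and 12.1 to 30.5 between pairs of DED libraries. Lens and retina transcripts differed between the groups and are described with their values further on.

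Dry eye disease is a disorder of the tear film in which the ocular surface is exposed to drying and inflammation, and its epithelium can take on features of skin. Exosomes are small vesicles that cells release, loaded with proteins, lipids and RNA. Several of the genes described here belong to the circadian clock, which runs in the cornea as in most tissues. In the clock, Arntl (BMAL1) and its partners switch on the Per and Cry genes, whose proteins repress them in turn, and the nuclear receptors Nr1d1 and Nr1d2 (REV-ERB alpha and beta), which repress Arntl through ROR elements in DNA. The clock reaches its output genes partly through the activators Dbp and Tef and the repressor Nfil3, which bind the same sequence, the D-box.

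At an adjusted p under 0.05 (limma across 15326 genes, two-sided, Benjamini-Hochberg), 33 genes differed between eye drop and DED corneas, 0.215% of those tested. Of these, 22 were higher with the eye drop (0.144%) and 11 were lower (0.0718%). The change was at least 2-fold for 32 of them. In all 33 the eye drop values lay wholly above or wholly below the DED values, an arrangement that 15.9% of all genes showed in the higher and 15.3% in the lower direction. At an unadjusted p under 0.05 there were 1243 genes (8.11%), of which 607 were higher (3.96%) and 636 lower (4.15%). The median log2 fold change of all genes was -0.01 after scaling between libraries. With values taken as deposited and not scaled between libraries, 79.3% of the calls were higher with the eye drop, against 66.7% in the main analysis. The calls rest on both eye drop libraries, since leaving out eye drop 1 left 1 call and leaving out eye drop 2 left 2. Without DED 1, 2 or 3 there were 14, 19 or 17 calls, and without intravenous 3 there were 83. The 12 genes called without each DED library in turn were Cyp2a5, Arntl, Dbp, Tef, Ccnd2, Gbp2, Nfil3, Nr1d2, Snx31, Alox15, Alox12e and Tnfsf10. Each of the other calls was lost without at least 1 DED library. Of the lower calls, 3 had met the count minimum through the DED libraries alone, Nfil3, Gm47985 and Gm8947, so these are a description. No fold change of the 33 genes changed its direction when any of the 5 libraries was left out, and the largest shift was 0.45 on the log2 scale. In these bulk samples, fewer cells of a type and less RNA per cell cannot be told apart.

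**Figure D1:**
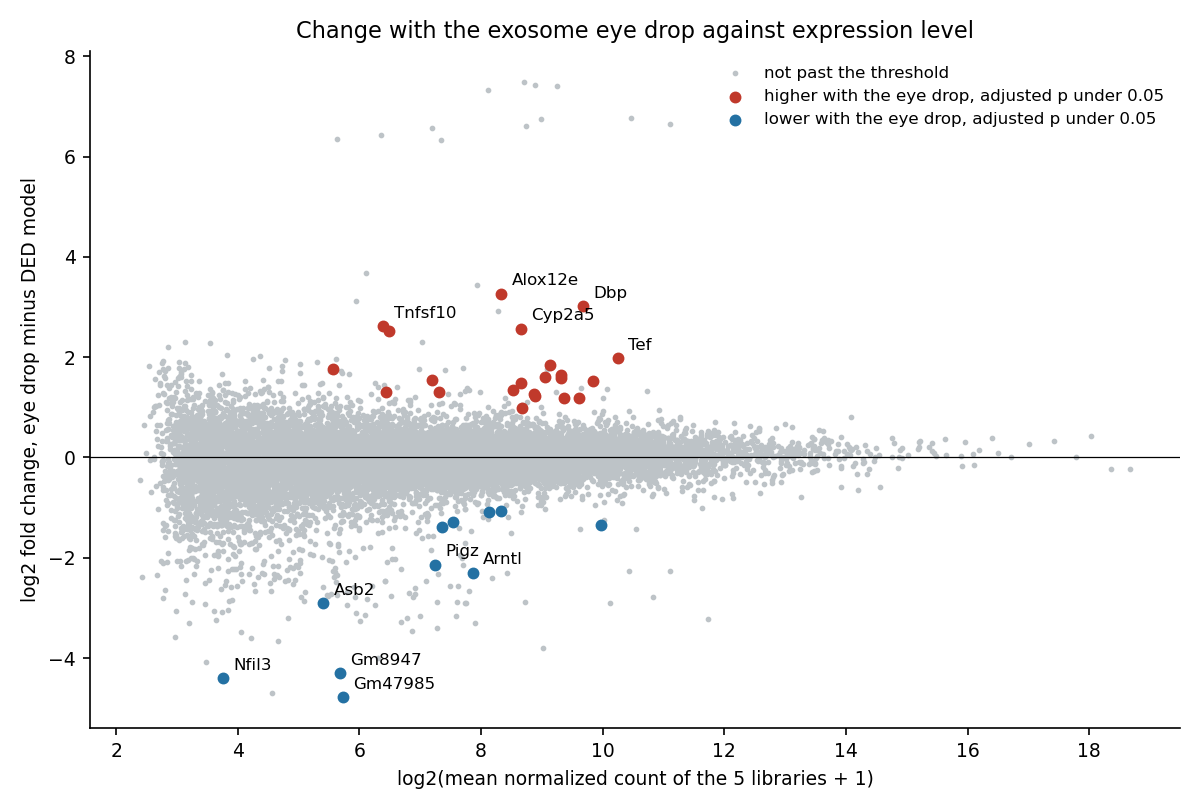
Log2 fold change, eye drop minus DED model, against the log2 of the mean normalized count of the 5 libraries plus 1. Each point is 1 of 15326 genes, red points are the 22 higher and blue points the 11 lower genes at an adjusted p under 0.05, and the unlabelled grey points above 6 did not pass and are mostly lens genes.

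In the core loop, the activator Arntl was lower and the repressors Nr1d1, Nr1d2 and Per3 were higher with the eye drop than in DED. The hour of collection is not stated, and its part in the clock and clock output genes was not tested. Arntl, the activator at the head of the loop, had 60.3 and 75.2 normalized counts with the eye drop, against 420.5, 254.1 and 352.6 in DED. Both eye drop libraries stood far below the lowest DED library, and the controls lay in between at 114 to 136. The log2 fold change was -2.30 (SE 0.24, adjusted p = 0.0012 in limma). Nr1d2 had 997 and 1157 normalized counts with the eye drop, against 370.5, 320.4 and 337 in DED, higher by 1.65 on the log2 scale (SE 0.22, adjusted p = 0.00695 in limma). Nr1d1 had 1653 and 1354 with the eye drop, against 379, 660 and 564 in DED (log2 fold change 1.52, SE 0.27, adjusted p = 0.0337 in limma). DED 1 was the lowest library for Nr1d1, and the DED libraries of Nr1d2 lay close together. Nr1d1 overlaps Thra on the opposite strand, and whether the counting used strand is not given, so its reads cannot be fully told apart from those of Thra. Per3, a member of the Period repressor family, had 758 and 687 normalized counts with the eye drop, against 285, 337 and 299 in DED (log2 fold change 1.23, SE 0.21, adjusted p = 0.0288 in limma). All eye drop values of the receptors and of Per3 exceeded every DED value. So did all control values, at 1609 to 1973 for Nr1d1, 817 to 1545 for Nr1d2 and 910.5 to 1360 for Per3. Arntl overlaps an antisense gene.

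Among the other core members, none passed the threshold. Of all 18 core members, the called ones included, 10 had eye drop values above all DED values, beside 15.9% of all genes. Another 3 had eye drop values below all DED values, beside 15.3%. Per2 had 268 and 221 normalized counts with the eye drop, against 25.8, 74.0 and 60.2 in DED (log2 fold change 2.30, adjusted p = 0.0738 in limma). Cry2, a cryptochrome repressor, had a log2 fold change of 1.30 (adjusted p = 0.156 in limma), while its paralog Cry1 lay in the other direction at -0.89 (adjusted p = 0.209). Npas2, which can replace Clock as the partner of Arntl, had 87.3 and 57.8 with the eye drop, against 187.9, 169 and 137 in DED, and also did not pass (log2 fold change -1.19, adjusted p = 0.329 in limma). In all, 3 of the 18 core clock genes were called higher, beside 0.144% of all genes, and 1 lower, beside 0.0718%. At an unadjusted p under 0.05 the numbers were 8 and 3, beside 3.96% and 4.15% of all genes. The median log2 fold change of the 18 was 0.45, and 0.28 without DED 1, beside -0.01 over all genes.

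The promoters of 2 core genes are shown, because the sequences through which the loop is known to act can be read in them. They are RefSeq promoter windows on the build GRCm38.p6, 250 bases before to 50 bases after a transcript start, written 5′ to 3′ along the gene. Capitals mark the D-box letters TTATGTAA or TTACGTAA in Per3 (chr4:151044616-151044915, minus strand) and the ROR element letters AGGTCA in the second Arntl window (chr7:113207261-113207560, plus strand), searched on both strands.
Per3: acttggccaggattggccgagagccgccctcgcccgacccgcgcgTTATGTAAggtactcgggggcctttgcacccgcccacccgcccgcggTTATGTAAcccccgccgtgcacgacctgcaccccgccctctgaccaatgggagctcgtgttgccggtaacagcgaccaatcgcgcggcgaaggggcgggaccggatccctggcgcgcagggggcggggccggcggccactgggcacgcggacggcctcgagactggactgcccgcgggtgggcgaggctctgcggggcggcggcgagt
Arntl: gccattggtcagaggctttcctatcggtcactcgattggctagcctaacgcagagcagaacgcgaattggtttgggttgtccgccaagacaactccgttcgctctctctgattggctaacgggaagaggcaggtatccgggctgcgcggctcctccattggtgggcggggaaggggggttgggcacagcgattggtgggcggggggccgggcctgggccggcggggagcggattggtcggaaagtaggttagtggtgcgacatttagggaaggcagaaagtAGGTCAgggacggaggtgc

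Of the 33 genes, 22 had promoter windows in the RefSeq table, 27 windows in all. Per3 was the 1 gene of these with a D-box, and it carried 2 of them, whereas 1.06% of 32851 promoter windows of the same length held at least 1. The ROR element letters stood in 9 windows, those of Arntl, Nr1d2, Nfil3, Cyp2a5, Tnfsf10, Ctss, Inpp1, Slc46a2 and Chst10, and in 16.3% of all promoter windows. A match of letters is a description and not a site of binding.

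Output genes of the clock were among the genes with the smallest p-values. Cyp2a5, a cytochrome P450 that hydroxylates coumarin and is a known target of the Dbp family in mouse liver, had 810.1 and 793.1 normalized counts with the eye drop, against 135, 170.1 and 106 in DED. The eye drop libraries were nearly equal and stood above the controls too, which had 451 to 589. The log2 fold change was 2.57 (SE 0.25, adjusted p = 0.000949 in limma), the smallest p of all genes, and Cyp2a5 was the 1 gene called with any of the 5 libraries left out. Its close relative Cyp2a4 was listed at 0 in all 5 libraries. Dbp had 1736 and 1658 normalized counts with the eye drop, against 111, 318 and 258 in DED, higher by 3.01 on the log2 scale (SE 0.34, adjusted p = 0.00372 in limma). DED 1 was the lowest of the 3 DED libraries, and the controls, at 1299 to 1779, lay around the eye drop values. Dbp overlaps Sphk2 on the opposite strand, and Sphk2 itself had a log2 fold change of 0.87 and did not pass (adjusted p = 0.112 in limma). Tef, the sister activator of Dbp, had 2168 and 2197 with the eye drop, against 369.7, 770.0 and 589 in DED (log2 fold change 1.98, SE 0.24, adjusted p = 0.00423 in limma), with controls of 1781 to 2198.5. Tef also overlaps an antisense gene.

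Nfil3, the repressor that competes with Dbp and Tef for the D-box, moved the other way. No read of Nfil3 was counted in either eye drop library, against 27.3, 14.4 and 20.9 normalized counts in DED. With 3 normalized counts taken as the floor in each library, which covers counting error only, Nfil3 was at least 6.95-fold lower with the eye drop (adjusted p = 0.00674 in limma). It had met the count minimum through the DED libraries alone, where it is high, so this call is given as a description. With a count minimum of 50, Nfil3 was not tested. The controls had 5.18 to 6.74 and the intravenous libraries 5.6 to 7.23 normalized counts, so the eye drop libraries lay below all other libraries of the series. Of the 11 clock output genes tested, 3 were called higher (0.144% of all genes) and 1, Nfil3, lower (0.0718%), and the others, among them Por, Alas1, Wee1 and Usp2, did not pass. The median log2 fold change of the 11 was 0.42. Leaving out 1 eye drop library ended these calls, except that of Cyp2a5: the adjusted p (limma) of Dbp was then 0.0764 or 0.0592, and those of Tef and Nfil3 were 0.0986 or 0.0799. With the 5 compared libraries fitted alone, Dbp (adjusted p = 0.138 in limma), Tef (0.0572) and Nfil3 (0.0572) did not pass either.

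A promoter of Tef (second window, chr15:81811164-81811463, plus strand) is shown because it holds in capitals the E-box CACGTG, the sequence that Arntl and its partner bind. The same letters stood in 5 of the 27 windows, from the 4 genes Tef, Asb2, Clcn4 and Fkbp5, and in 7.15% of all promoter windows.
Tef: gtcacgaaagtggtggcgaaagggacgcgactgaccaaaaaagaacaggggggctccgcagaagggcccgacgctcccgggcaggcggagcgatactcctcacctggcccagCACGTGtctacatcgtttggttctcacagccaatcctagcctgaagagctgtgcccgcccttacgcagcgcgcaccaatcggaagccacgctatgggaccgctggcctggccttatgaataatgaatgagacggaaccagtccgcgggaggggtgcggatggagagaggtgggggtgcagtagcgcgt

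**Figure D2:**
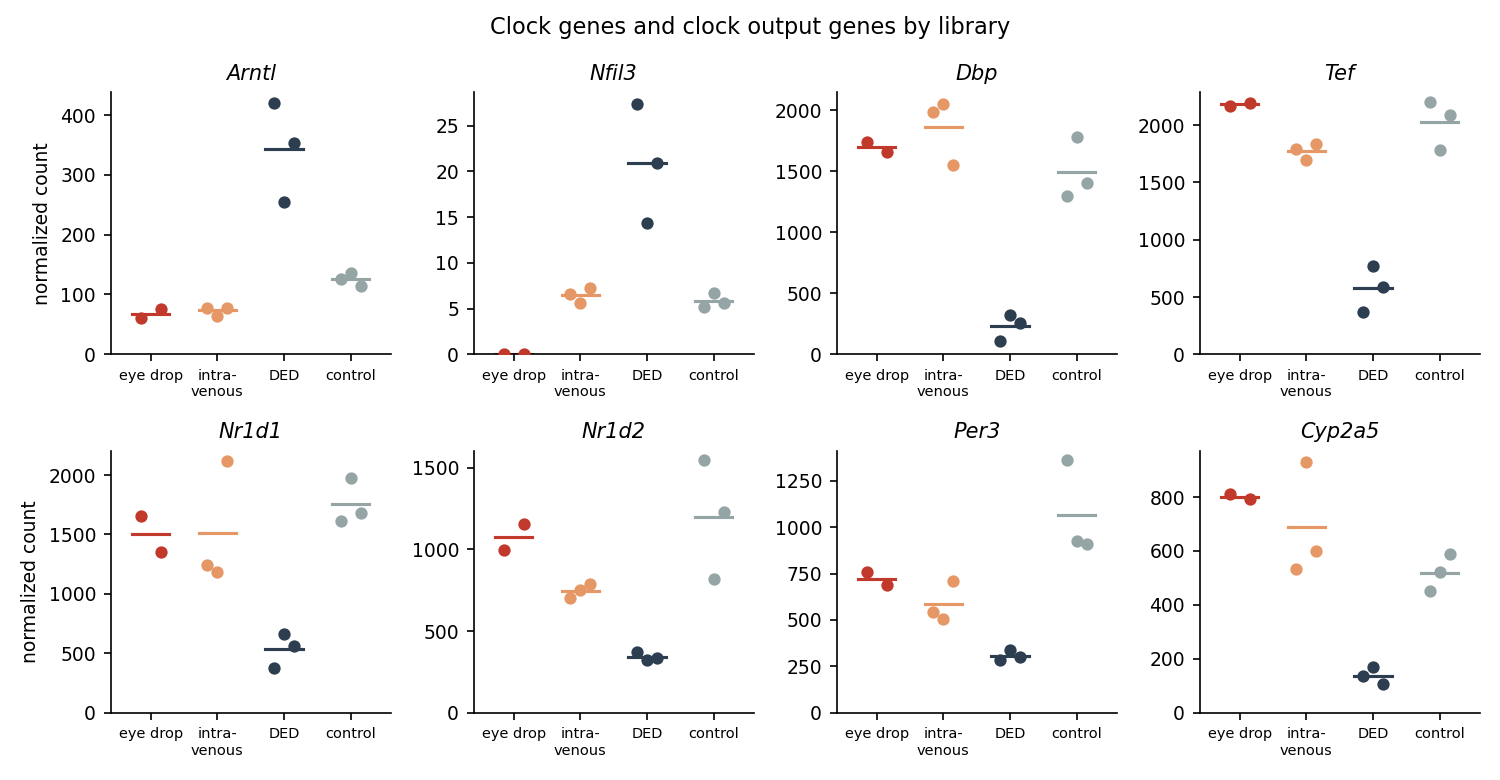
Normalized counts (linear axes from 0) of 8 clock and clock output genes in each library of the eye drop, intravenous, DED and control groups. Each point is 1 library and each line a group mean. Arntl and Nfil3 lie lower and Dbp, Tef, Nr1d1, Nr1d2, Per3 and Cyp2a5 higher in the eye drop libraries than in every DED library.

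Genes of 2 lipoxygenases rose with the eye drop. These enzymes insert oxygen into polyunsaturated fatty acids and give rise to both inflammatory and resolving lipid mediators in the cornea. Alox12e, the epidermal 12-lipoxygenase of mouse, had 678 and 704 normalized counts with the eye drop, against 40.2, 93.9 and 94.3 in DED. Alox15, the leukocyte-type lipoxygenase of mouse, had 172 and 183 with the eye drop, against 34.1, 32.0 and 24.4 in DED. Every eye drop library exceeded not only each DED library but also each control library, at 214.5 to 425 for Alox12e and 78.4 to 107 for Alox15. The log2 fold changes were 3.27 (SE 0.43, adjusted p = 0.0104 in limma) for Alox12e and 2.53 (SE 0.35, adjusted p = 0.0074) for Alox15. Of the 12 lipoxygenase and eicosanoid genes tested out of 16, these were the 2 called, and the median of the list was -0.06, or -0.17 to 0.09 with 1 library left out. Without eye drop 1 or eye drop 2 the adjusted p (limma) of both genes was 0.126 or 0.142.

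Immune genes were called singly. Tnfsf10, the death ligand TRAIL, had 186 and 146 normalized counts with the eye drop, against 41.7, 24.3 and 17.5 in DED (log2 fold change 2.61, SE 0.38, adjusted p = 0.0104 in limma). Gbp2, an interferon-induced guanylate-binding protein, had 684 and 749 with the eye drop, against 326, 304 and 268 in DED (log2 fold change 1.26, SE 0.17, adjusted p = 0.00674 in limma). Ctss, the cathepsin that trims the invariant chain of MHC class II, had 275 and 216.5 with the eye drop, against 112, 86.2 and 96.9 in DED (log2 fold change 1.31, SE 0.19, adjusted p = 0.0118 in limma). All 3 genes stood higher in both eye drop libraries than in any DED or control library. Mir6381 was also called higher (log2 fold change 1.77, adjusted p = 0.0337 in limma), but it lies within Gbp2 on the opposite strand, so its reads cannot be told apart from those of Gbp2.

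Among the interferon-induced GTPases, Gbp2 was the 1 member past the threshold. All 12 interferon-induced GTPases tested out of 16 had a positive log2 fold change, with a median of 0.74, and 7 of the 12 had eye drop values above every DED value, beside 15.9% of all genes. Among 28 antiviral interferon-stimulated genes the median was 0.66, 26 were positive, 20 had all eye drop values above all DED values, 6 had an unadjusted p under 0.05 in the higher direction, beside 3.96%, and 0 passed the adjusted threshold. Zbp1, a sensor of Z-form nucleic acid, had 234 and 357 normalized counts with the eye drop, against 82.6, 71.8 and 104 in DED. Its log2 fold change was 1.75 with an adjusted p of 0.522 (limma). Irf7, the regulator of type I interferon genes, had 1617 and 1457 with the eye drop, against 489, 769 and 800.4 in DED, and also did not pass (adjusted p = 0.609 in limma). The control and intravenous libraries spread widely for both genes. For Zbp1, control 1 stood at 73.2 and the others at 284 and 292, and the intravenous libraries at 545, 951 and 1785. Since all groups share 1 estimate of spread, that scatter enters these p-values.

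Antigen presentation genes gave 1 call. Of 17 MHC class I genes, 0 were called and the median log2 fold change was 0.25, or 0.10 without DED 1. Of the 17, 7 had eye drop values above all DED values, beside 15.9% of all genes, and 0 below, beside 15.3%. B2m, the light chain of class I, had 2083 and 1738 normalized counts with the eye drop, against 1002, 791 and 1279 in DED (log2 fold change 0.92, adjusted p = 0.408 in limma). Ctss was the 1 gene called among 7 class II genes tested, whose median was 0.14, or -0.20 without eye drop 1 and 0.47 without eye drop 2. Markers of macrophages and dendritic cells summed to 1850 and 1513 normalized counts with the eye drop, against 1752, 1324.5 and 1483 in DED, and 0 of their 12 tested members were called. T, B and NK cell markers summed to at most 9.91 with the eye drop and 19.7 in DED. Neutrophil markers summed to 48.6 and 56.2 with the eye drop, against 526, 129 and 82.9 in DED, so these groups did not overlap. Most of each sum was S100a9, with 40.5 and 46.3 with the eye drop, against 440, 115 and 78.6 in DED. S100a9 was the 1 neutrophil marker tested and is also in the antimicrobial list, so the sums say little about neutrophils. The part that leukocytes may have in Ctss or Tnfsf10 was not tested.

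The promoter of Gbp2 (chr3:142620413-142620712, plus strand) is printed with its match to the interferon-stimulated element in capitals, as the gene of the interferon group that passed the threshold. Ctss also held a match, and one stood in 3.44% of all promoter windows.
Gbp2: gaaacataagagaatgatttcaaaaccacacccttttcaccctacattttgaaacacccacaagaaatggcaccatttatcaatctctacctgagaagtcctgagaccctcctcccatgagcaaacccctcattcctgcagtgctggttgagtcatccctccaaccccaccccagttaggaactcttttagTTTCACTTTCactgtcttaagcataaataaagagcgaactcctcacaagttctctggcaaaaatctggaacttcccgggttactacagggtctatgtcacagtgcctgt

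Of 25 genes for making cholesterol, 22 had negative fold changes and 1 of these passed the threshold. Fdps, which makes farnesyl diphosphate on the way to cholesterol, had 175.5 and 154.5 normalized counts with the eye drop, against 345, 411 and 308 in DED. The eye drop values were below every DED value and within or just under the range of the controls, 167.5 to 189. Fdps fell by 1.09 on the log2 scale (SE 0.19, adjusted p = 0.0323 in limma) and was the 1 gene called. Another 9 members also had an unadjusted p under 0.05 in the lower direction, beside 4.15% of all genes, none in the higher, and 15 of 25 had all eye drop values below all DED values, beside 15.3% of all genes. The median log2 fold change of the list was -0.35. Cyp51, the lanosterol demethylase, had 2252 and 2564.5 with the eye drop, against 3638, 3718 and 3915 in DED (log2 fold change -0.64, adjusted p = 0.221 in limma). The groups were clearly separated, although the gene did not pass. The 17 fatty acid genes tested had a median of -0.25, or -0.40 without DED 1 and -0.39 without eye drop 1, and 0 calls. Of these 17, 9 lay apart in the lower direction, beside 15.3% of all genes, and 1 in the higher, beside 15.9%. Through the DED libraries alone, 2 of them had entered the test. The lowest value of the list was that of Elovl4, which makes very long fatty acids. It had 5.4 and 14.9 normalized counts with the eye drop, against 101, 37.6 and 176 in DED (log2 fold change -3.14, adjusted p = 0.226 in limma). DED 3 was the highest library of the series for Elovl4 and for the retina markers described further on. The part of retina in Elovl4 was not tested.

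Genes of squamous cornification, the skin-like programme of the epithelium, had the lowest median of the pathway lists (-0.90) and 0 calls among the 18 tested of 33. Sprr1a, a cross-linked envelope protein of stressed epithelium, had 386 and 336 normalized counts with the eye drop, against 4796, 1637 and 1980.5 in DED (log2 fold change -2.79, adjusted p = 0.112 in limma). Krt16, a keratin of injured epidermis, had 556 and 718 with the eye drop, against 4928, 2834 and 1998 in DED (log2 fold change -2.26, adjusted p = 0.549). Cnfn, cornifelin, had 585 and 290.0 with the eye drop, against 2625, 1771 and 1643 in DED (log2 fold change -2.25, adjusted p = 0.501). These 3 genes were lower in both eye drop libraries than in every DED library, but DED 1 was the highest library for each, and the control libraries spread widely for Krt16 and Cnfn. In all, 11 of the 18 had eye drop values below all DED values, beside 15.3% of all genes, 6 had an unadjusted p under 0.05 in the lower direction, beside 4.15%, and 3 of the 18 had entered the test through the DED libraries alone.

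The interleukin 1 and 36 family, alarm cytokines of epithelium, held 0 calls among 13 genes tested and a median of -0.36, or -0.20 without DED 1. Its nearest member was Il1f5, the interleukin 36 receptor antagonist, with 139 and 121 normalized counts with the eye drop, against 309, 235 and 256 in DED (log2 fold change -1.03, adjusted p = 0.114 in limma). Il1r1, the interleukin 1 receptor, had 66.6 and 85.9 with the eye drop, against 226, 165 and 141 in DED (log2 fold change -1.19, adjusted p = 0.18 in limma). Il1f5 and Il1r1 thus both had values in the lower direction without passing, and Il1r1 is not the receptor that Il1f5 blocks. In all, 6 of the 13 had eye drop values below all DED values, beside 15.3% of all genes, and 1 above, beside 15.9%. At an unadjusted p under 0.05 (limma), 4 were lower, beside 4.15%, and 1 higher, beside 3.96%. Of 8 chemokine and cytokine genes tested out of 21, 0 were called (median -0.30, or -0.42 to -0.14 with 1 library left out).

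The remaining named genes belonged to the cell cycle and to metabolism, transport and ubiquitin transfer. Ccnd2, the cyclin D2 that drives entry into the cell cycle, had 1086 and 1034 normalized counts with the eye drop, against 317, 369 and 383 in DED. The eye drop libraries stood well above every DED library and within the control range of 929.8 to 1260.5. The log2 fold change was 1.57 (SE 0.20, adjusted p = 0.00463 in limma). It was the 1 call among 14 D cyclins and CDK inhibitors, while 32 genes of replication and mitosis had 0 calls and a median of -0.27, which was -0.03 without eye drop 1 and -0.51 without eye drop 2. Ccnd2 overlaps 2 antisense genes, so its counts are uncertain by the reads of those. Hist1h1c, the linker histone H1.2, had 503 and 521 normalized counts with the eye drop, against 1624, 1422 and 964 in DED (log2 fold change -1.35, SE 0.25, adjusted p = 0.0484 in limma), and its similarity to other H1 genes makes its counts uncertain.

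Asb2, the substrate-binding part of a ubiquitin ligase, was nearly silent with the eye drop. It had 6.3 and 9.09 normalized counts with the eye drop, against 52.3, 59.7 and 80.3 in DED (log2 fold change -2.90, SE 0.47, adjusted p = 0.0197 in limma), with controls at 2.22 to 6.74. Pigz, a mannosyltransferase that adds to glycosylphosphatidylinositol anchors, had 55.8 and 41.3 with the eye drop, against 245.5, 244 and 165 in DED (log2 fold change -2.14, SE 0.34, adjusted p = 0.0165), and it overlaps another gene on the same strand. Slc46a2, a solute carrier, had 74.7 and 88.4 with the eye drop, against 267, 208 and 175 in DED (log2 fold change -1.38, SE 0.23, adjusted p = 0.0218). Eye drop libraries were the lower ones in each of these, and only for Slc46a2 did they also lie below every control library, where the controls averaged 137 ± 18.0 (SD, n = 3). Clcn4, a chloride and proton exchanger that overlaps an antisense gene, had 184 and 205 with the eye drop, against 424, 411 and 381 in DED (log2 fold change -1.06, adjusted p = 0.0337 in limma). On the higher side, Snx31, a sorting nexin, averaged 998 ± 69.5 normalized counts with the eye drop (SD, n = 2), against 437 ± 51.3 in DED (SD, n = 3). Ripply3, a corepressor of T-box factors, averaged 888 ± 218 with the eye drop and 293 ± 66.8 in DED. Inpp1, an inositol polyphosphate phosphatase, averaged 993 ± 366 with the eye drop and 274 ± 67.8 in DED. The adjusted p-values (limma) of these 3 were 0.0074, 0.013 and 0.0143. The eye drop libraries of Ripply3 and Inpp1 differed among themselves much more than those of Snx31.

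The other 9 of the 33 genes lie outside the rule for named genes or are predicted genes, and are named here after their values were seen; Mir6381 is given above. Fkbp5, a co-chaperone of steroid hormone receptors that glucocorticoids induce, had 630.0 and 689 normalized counts with the eye drop, against 205, 252 and 249.6 in DED (log2 fold change 1.49, SE 0.27, adjusted p = 0.0405 in limma). It lay above every control library, the highest of which had 553. Chst10, Gldc, Asb11 and Bcas1 were higher by 1.00 to 1.54 on the log2 scale, and Bcas1 overlaps 2 antisense genes. The predicted gene Gm10238 was higher (log2 fold change 1.35), and A130010J15Rik was lower (log2 fold change -1.29). Gm47985 had 2.7 and 1.65 with the eye drop, against 90.9, 89.5 and 75.1 in DED (log2 fold change -4.78). Gm8947 had 3.6 and 2.48 with the eye drop, against 98.5, 98.3 and 48.0 in DED. Both of these predicted genes were close to 0 in the eye drop and control libraries and high in DED alone among these 3 groups. They had met the count minimum through DED alone, and neither was called with a count minimum of 50 (adjusted p = 0.183 and 0.237 in limma) or a pseudocount of 0.5 (0.0601 and 0.161). Just outside the threshold were Rimklb and Lim2, both at an adjusted p of 0.0507.

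**Figure D3:**
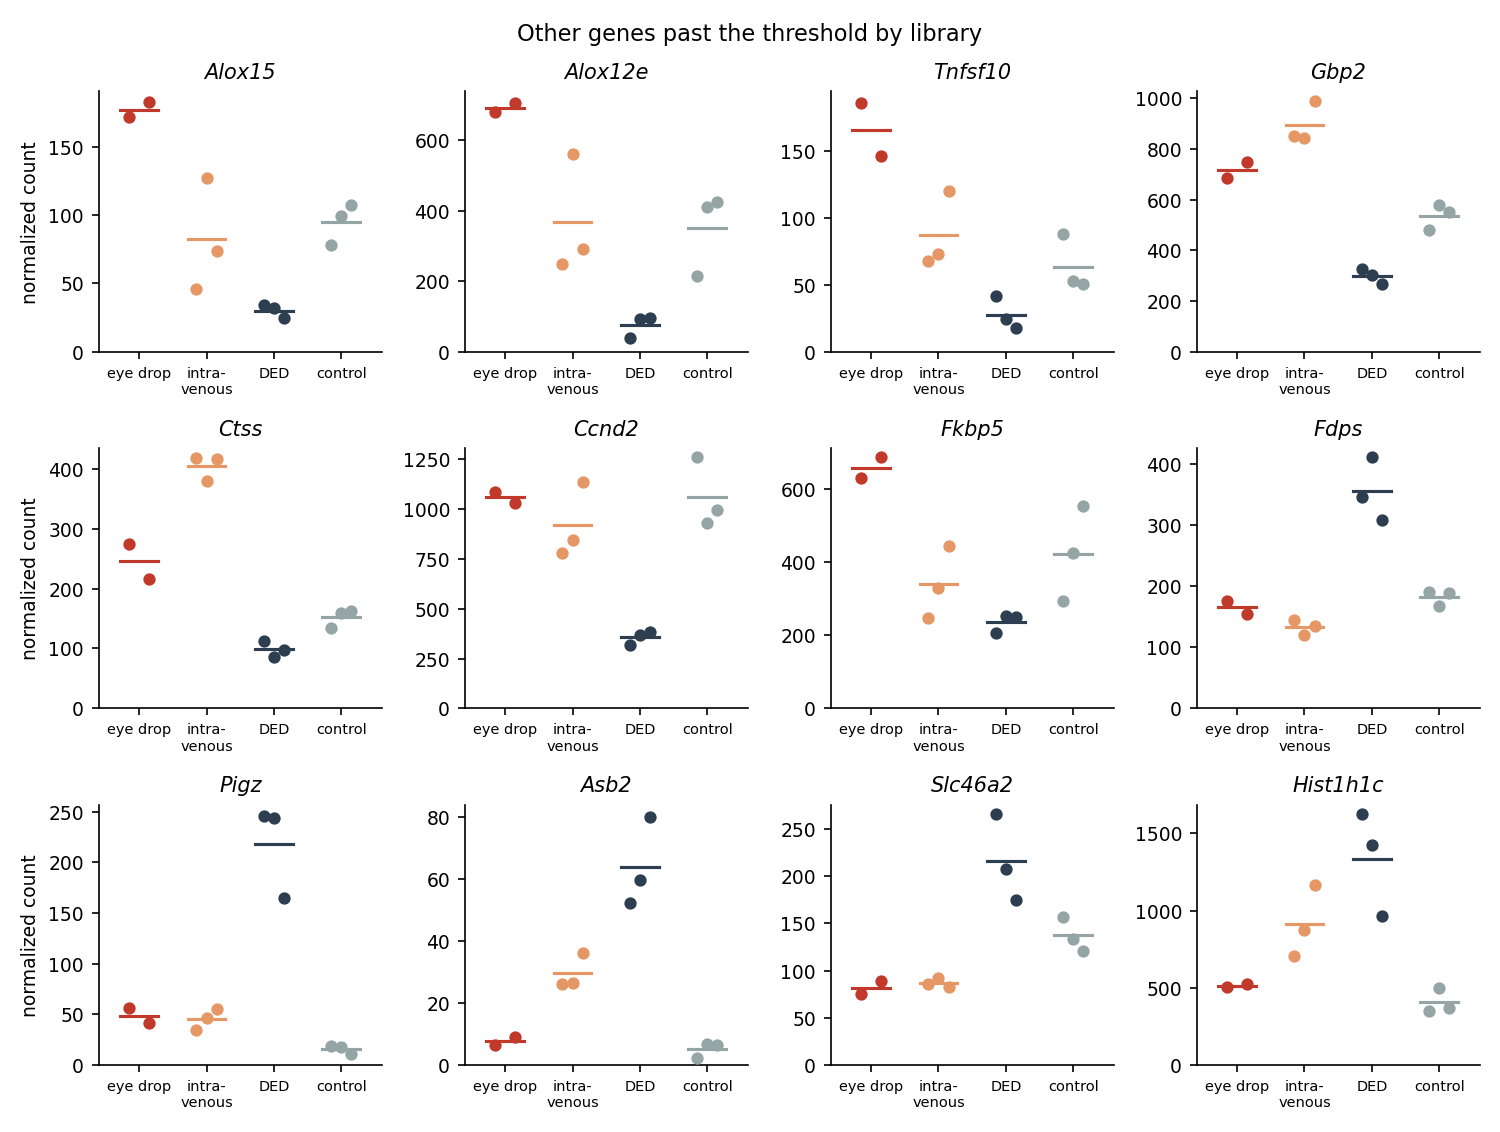
Normalized counts (linear axes from 0) of 12 further genes past the threshold in each library of the eye drop, intravenous, DED and control groups. Each point is 1 library and each line a group mean. The panels from Alox15 to Fkbp5 lie higher and those from Fdps to Hist1h1c lower in the eye drop libraries than in every DED library.

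Lists of corneal, epithelial surface, junction, antioxidant and respiratory chain genes gave no call. Among 13 keratins, 15 corneal identity transcription factors, 20 corneal crystallins and antioxidants, 8 surface mucins, 20 junction genes and 25 respiratory chain genes, 0 passed the threshold, and the list medians lay between -0.06 and 0.24, those of the mucins and the respiratory chain changing sign without 1 library. Krt14, a keratin of basal cells, had 6284 and 7237 normalized counts with the eye drop, against 15446, 11733 and 8574 in DED (log2 fold change -0.78, adjusted p = 0.616 in limma). Krt7, a keratin of simple and conjunctival epithelium, had 2804 and 2303 with the eye drop, against 1618, 2066 and 1175 in DED (log2 fold change 0.69, adjusted p = 0.487). Neither difference passed. Of the 13 keratins, these 2 among them, 3 lay apart in the higher direction, beside 15.9% of all genes, and 2 in the lower, beside 15.3%. Of the 20 crystallins and antioxidants, 7 lay apart in the higher direction and 2 in the lower, beside the same shares. In the unfolded protein response 0 of 21 genes were called, 10 of them lay apart in the lower direction, beside 15.3% of all genes, and the median was -0.26, or -0.15 without eye drop 1 and -0.46 without eye drop 2. In glycolysis and hypoxia 0 of 21 were called (median -0.19, or -0.29 to -0.11 with 1 library left out). Of these 21, 10 lay apart in the lower direction, beside 15.3% of all genes, and 2 in the higher, beside 15.9%. At an unadjusted p under 0.05 (limma), 5 were lower, beside 4.15%, and 1 higher, beside 3.96%. The collagens and stromal matrix genes showed no steady direction, with a median of -0.26 over 21 genes that was -0.96 without eye drop 1 and 0.42 without eye drop 2. The 13 metalloproteinases and inhibitors, 17 TGF-beta genes, 16 immediate early genes, 11 antimicrobial genes, 11 Notch genes and 15 neurotrophin genes held 0 calls. Their medians were -0.16, -0.11, -0.32, 0.06, -0.06 and -0.40 in that order. With 1 library left out the medians ran from -0.55 to 0.07 for the metalloproteinases, -0.13 to 0.03 for TGF-beta, -0.37 to 0.19 for the antimicrobial and -0.15 to 0.05 for the Notch genes, so none of these had a steady direction. They ran from -0.50 to -0.11 for the immediate early and -0.53 to -0.15 for the neurotrophin genes. Of the 15 neurotrophin genes, 6 lay apart in the lower direction, beside 15.3% of all genes, and 2 in the higher, beside 15.9%. The 9 TNF family genes tested had Tnfsf10 as their 1 call and a median of 0.14, or 0.05 to 0.28 with 1 library left out.

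**Figure D4:**
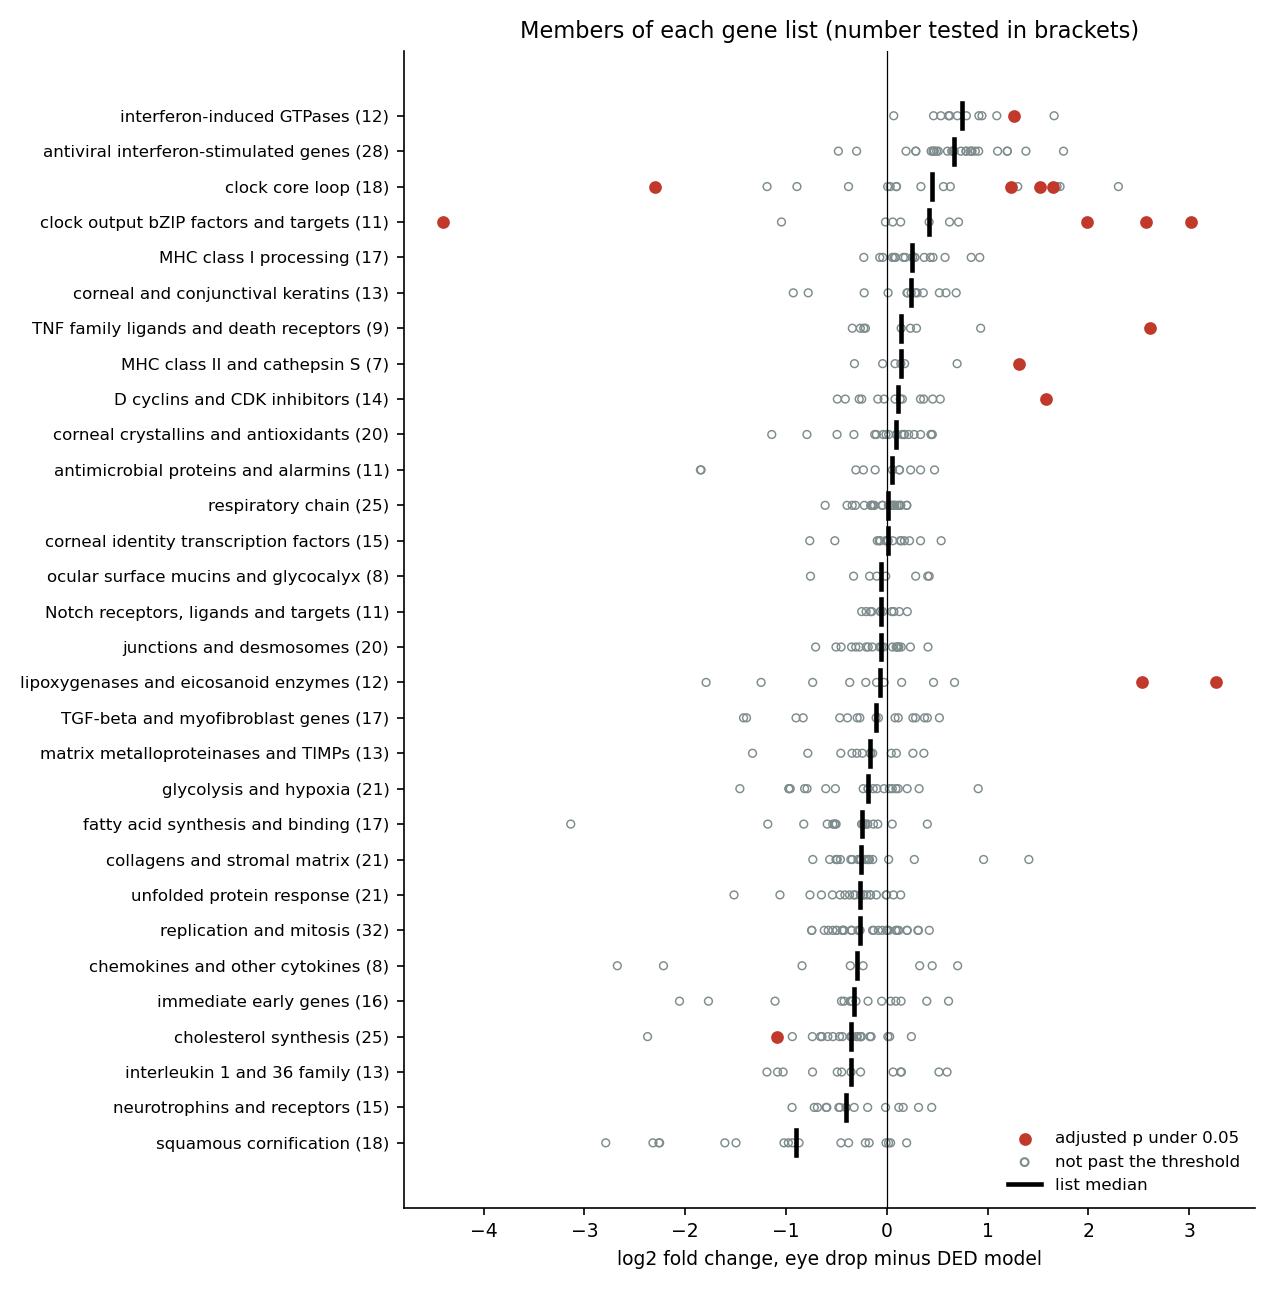
Log2 fold change, eye drop minus DED model, of the tested members of 30 gene lists, ordered by list median. Filled red points passed an adjusted p of 0.05, open points did not, and black bars are list medians, which run from 0.74 in the interferon-induced GTPases to -0.90 in squamous cornification.

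Lens and retina transcripts, which come from parts of the eye other than the cornea, differed between the eye drop and DED libraries. The 23 lens markers summed to 2648 and 35030 normalized counts with the eye drop, against 205, 430 and 212 in DED, and eye drop 2 held most of them. Controls summed to 143.5, 1123 and 3484 and intravenous libraries to 3413, 895 and 92.5, so eye drop 1 lay within both ranges. Cryaa, the alpha crystallin of the lens, had 797.5 and 10167 with the eye drop, against 13.6, 103 and 14 in DED. Lim2, a membrane protein of lens fibres, had 51.3 and 190.0 with the eye drop, against 0, 0 and 0.873 in DED. Of 17 lens markers tested 0 were called, 16 had all eye drop values above all DED values, beside 15.9% of all genes, and 8 had entered the test through the eye drop libraries alone. The 21 retina markers went the other way and summed to 498 and 2322 with the eye drop, against 5707, 3281 and 25900.5 in DED. Controls summed to 306, 5453 and 1471, a range that held both eye drop libraries. All 20 retina markers tested had negative fold changes, 13 lay apart from DED in the lower direction, beside 15.3% of all genes, and 0 were called. Of the 20, 1 had entered the test through the DED libraries alone. Lens markers took at most 0.31% of the counts with the eye drop and 0.00376% in DED, and retina markers at most 0.0205% with the eye drop and 0.243% in DED. Markers of corneal epithelium summed to 865536.5 and 876582 with the eye drop, against 790950.4, 1003085 and 888925 in DED. Vessel and lymphatic endothelium markers summed to 245 and 147 with the eye drop, against 356, 297 and 397 in DED. Conjunctiva and goblet cell markers summed to 57196 and 62284 with the eye drop, against 47102, 55182 and 42641 in DED. The eye drop and DED sums overlapped neither for the vessel nor for the conjunctiva markers. Most of each conjunctiva sum was Krt13, with 46177 and 51144 with the eye drop, against 39397, 45490 and 35713 in DED. The list members Muc5ac and Tff1 were at 0 in all 5 libraries. The part of lens, retina, vessel, conjunctiva and other tissue in the genes described above was not tested.

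**Figure D5:**
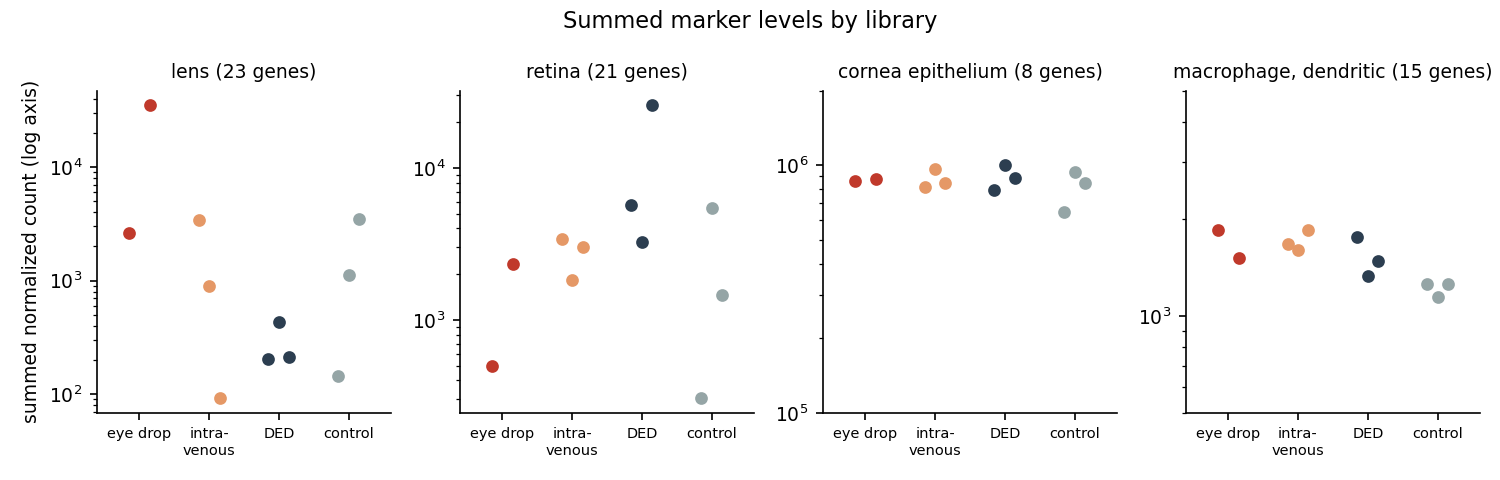
Summed normalized counts (log axes) of markers of lens, retina, corneal epithelium, and macrophages with dendritic cells, in each library of the eye drop, intravenous, DED and control groups. Each point is 1 library. Both eye drop libraries exceed every DED library in lens markers and lie under every DED library in retina markers, while the other panels overlap.

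Set against the intravenous route, the eye drop libraries differed in 0 of 15326 genes at an adjusted p of 0.05 (limma; 0% called), with 1637 at an unadjusted p under 0.05, and 1 gene was called by limma without trend and robust estimation. Leaving out intravenous 3 gave 600 calls, so the count of 0 rests on that library, and values not scaled between libraries gave 3580. The unadjusted p (limma) was under 0.05 for 11 of the 33 genes in this comparison of routes, beside 1637 of all 15326. The 33 had been chosen through the same eye drop libraries and the same fit, so the 11 are a description and not a test. Alox15 had 172 and 183 normalized counts with the eye drop, against 45.9, 127.5 and 73.7 intravenously (log2 difference 1.22, SE 0.35, adjusted p = 0.334 in limma). Fkbp5 had 630.0 and 689 with the eye drop, against 247, 329 and 444 intravenously (log2 difference 0.99, SE 0.27, adjusted p = 0.332 in limma). Ctss lay in the other direction, with 275 and 216.5 with the eye drop, against 419, 380 and 416 intravenously (log2 difference -0.73, SE 0.19, adjusted p = 0.332 in limma). Asb2 was also lower, with 6.3 and 9.09 with the eye drop, against 26.2, 26.6 and 36.1 intravenously (log2 difference -1.82, SE 0.47, adjusted p = 0.331 in limma). These 4 genes are examples chosen with their values known, and no difference between the routes passed the test. For Arntl, Dbp and Cyp2a5 the log2 differences between eye drop and intravenous libraries were -0.12 (SE 0.24), -0.12 (SE 0.34) and 0.26 (SE 0.25).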

How the data were processed

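RNA-seq of mouse cornea was deposited as 1 table of 28548 lines named by gene symbol and 12 sample columns. Libraries were made with a NEBNext Ultra RNA kit, per the labels' protocols, and the genome build is mm9, per the submitters' processing notes. For the aligner, counter, annotation and use of strand: not given in the sources used here. The deposited values are log2 of the count plus 1: in 11 columns, 99.9748% of values gave whole counts within 0.01. The name of the table speaks of normalization, but the values were not normalized between samples. The third eye drop column, with 26.9721% whole values, was left out. Left out too were 10 lines without whole counts and 9 named by dates, at most 0.0495% of a library.

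Counts were divided by median-of-ratios size factors over 11 libraries. Genes with a count of at least 10 in at least 2 of the 5 compared columns were kept. Limma 3.58.1 in R 4.3.3 (trend, robust, 4 group means) was fitted to log2(normalized count + 1), so fold changes of low genes are understated. Its residual degrees of freedom were 7, with a median prior of 6.89. An exact permutation test of 2 against 3 libraries cannot go below 0.1. Transcript length, known for 15233 genes, had a rank correlation of 0.008 with the fold change across genes, which are not independent replicates. Gene overlaps came from GENCODE M21 and promoters from RefSeq, both on GRCm38, not the build of the files; no coordinate was converted.

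The members and lists were chosen with earlier results of these data known. Named were the genes of smallest p past the threshold that differed by 1 or more on the log2 scale, at most 14 in each direction and without predicted genes, then each list's called members and up to 3 others. Alternatives changed scaling, pseudocount, filter, model, the libraries included and the replicate block. Some genes that the rule names are left out of the text.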

Additional observations from a re-analysis of the deposited data

How the results depend on the processing

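The 33 calls between eye drop and DED were 27 to 36 under other scalings, pseudocounts of 0.5 and 5 and voom, 41 without a filter, 24 by limma without trend and robust estimation, and 33 with the 5 libraries alone, 23 of them shared. They were 99 with eye drop column 3. Leaving out 1 library gave 1 to 83 calls. The lowest counts came without eye drop 1 (1) and eye drop 2 (2), DED 1, 2 and 3 gave 14, 19 and 17, control 2 gave 22, and intravenous 3 gave 83; leaving out control or intravenous libraries was added after seeing the data. Of the 33 genes, 12 were called without each of the DED libraries. With the replicate number as a block, 23 calls were left, all among the 33. The labels do not say that numbers pair the samples, and same-numbered libraries had correlations of their deviations from -0.262 to 0.337, so a call lost there is not read as a weaker effect. The 0 calls between eye drop and intravenous libraries were 3580 without scaling, 1 by limma without trend and robust estimation, and 4 with the third column, and 0 to 600 with 1 library left out. The causes were not tested. No named gene past the threshold reversed its direction, while the medians of 9 of the 30 pathway lists changed sign without 1 of the 5 libraries. Over the called genes and the list members named without passing, directions and sides of the threshold held in 2588 recomputations. In 208 the gene fell short of the threshold and in 22 it passed newly. Only the 33 called genes could fall short, so all 208 losses were theirs. The 2588 include genes that did not pass in the main fit either, and the tally includes fits with 1 eye drop library. With 2 eye drop libraries, a gene that misses the threshold is not shown to be unaffected.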
